A study of Homo sapiens with 2 samples.

Results

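The suppressors of cytokine signalling form a family of 8 genes, CISH and SOCS1 to SOCS7, and the m6A peaks in their transcripts are described here. Their members were taken as every peak whose summit, the base of highest signal, lay within the RefSeq span of 1 of the 8 genes on hg38, whatever gene the deposited table named for it. This gave 13 of 39801 peaks, in 7 of the 8 genes. N6-methyladenosine (m6A) is a methyl mark on adenosine within mRNA, and it was captured with an antibody from RNA of HCCLM3, a human hepatocellular carcinoma line of high metastatic capacity. The 2 libraries were an m6A-RIP library and an m6A-Input library, both from cells of WT genotype with no treatment given in the labels. There was 1 library per group and no replicate, so every value describes these libraries and no test between conditions was possible. The series concerns CRTC2, a CREB coactivator, and YTHDF2, a cytoplasmic m6A reader, and asks here which transcripts carry m6A in these cells.

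SOCS proteins close a feedback loop. A cytokine bound to its receptor activates Janus kinases (JAKs), these phosphorylate STAT transcription factors, and STATs induce several of the SOCS genes, whose proteins bind the receptor or the kinase through an SH2 domain and recruit an elongin and cullin 5 ubiquitin ligase through the SOCS box. In liver the loop restrains interleukin 6 and growth hormone signalling, and in liver cancer cells the writer METTL3 has been reported to lower SOCS2 mRNA through m6A and YTHDF2.

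Fold below is the authors' value for RIP over input at a peak's summit, with a pseudocount of 1 on both sides. Its interval is a 95% Poisson interval on the number of RIP fragments over the summit, which was recovered from fold and p-value, with the input level held fixed. These intervals cover counting error of the RIP fragments only, and not that of the input. The q-value is the peak caller's. The median fold over all peaks was 3.33, on a median of 9 RIP fragments. Among the 13 SOCS family peaks the median fold was 4.34, on a median of 22 fragments. All 13 summits lay in the span of 1 gene alone, so none was shared with an overlapping gene.

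Of the 8 genes, 7 held a peak (87.5%, Wilson interval 52.9 to 97.8), beside 49.3% of 20037 protein-coding genes. Wilson intervals here and below treat genes as independent draws. The 8 genes are the whole family, so such an interval reflects list size and no measured spread. At a q-value under 0.05 there were 5 genes, beside 39% of protein-coding genes, and at a q-value under 1e-5 the count was again 5, beside 28.5%. A fold of at least 4 was reached by 4 genes, beside 30.9%. Long genes hold peaks more often, and the SOCS spans run from 1788 to 64193 bases. The 5 members with spans of 10 to 100 kb all held a peak, beside 55.1% of protein-coding genes of such a span, and 2 of the 3 members under 10 kb did, beside 25.6%. These shares were not matched on expression, whose part was not tested.

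**Figure D1:**
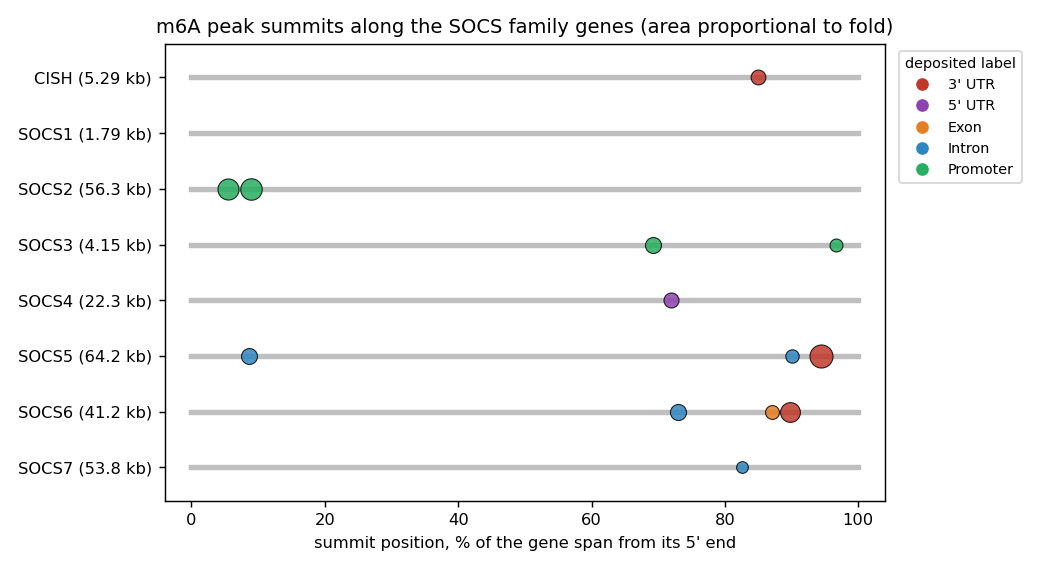
Summit positions of the 13 peaks along the 8 genes, as a percentage of the RefSeq span from its 5' end (left) to its 3' end; circle area is proportional to fold over input and colour gives the deposited region label. In CISH, SOCS3, SOCS4, SOCS6 and SOCS7 all summits lay beyond 69% of the span, in SOCS2 both lay below 9%, SOCS5 had 1 at 8.7% and 2 beyond 90%, and SOCS1 had none.

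CISH, the founding member, is induced by STAT5 and restrains growth hormone, prolactin and interleukin 2 signalling. Its promoter is shown here because it was the only member window with the STAT palindrome TTCNNNGAA, which reads the same on both strands. RefSeq windows of GRCh38.p14, from 250 bases before to 50 after a start, matched 5 of the 8 members, with 6 windows in all. The CISH window held 4 palindromes, in capitals below, and the windows of SOCS1, SOCS3, SOCS4 and SOCS6 held none in these letters. SOCS2, SOCS5 and SOCS7 had no window. The SOCS3 windows were only chr17:78360876-78361175 and chr17:78359618-78359917. Sequence outside the windows was not searched, so a palindrome elsewhere in the promoter of a member would be missed. Of 22199 windows of protein-coding genes, 6.79% held at least 1 and 0.036% at least 3. The first stretch is chr3:50611984-50612024 and the second chr3:50611866-50611915, both on the minus strand and both upstream of the start.
CISH stretch 1: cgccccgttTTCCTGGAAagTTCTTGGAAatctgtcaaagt
CISH stretch 2: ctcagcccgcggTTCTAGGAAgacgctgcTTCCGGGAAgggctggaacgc
The palindromes began 241, 230, 129 and 112 bases before the start. No m6A peak reached any of the 6 windows, but these lie mostly before the transcript start, so this says little about the transcripts. A match to these letters says nothing of STAT binding in these cells.

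The CISH transcript itself carried 1 weak peak. It lay in the 3' UTR on chromosome 3 from 50607061 to 50607874, with its summit 797 bases from the 3' end of the gene. Its fold was 3.74 (interval 1.86 to 7.24) on 6 RIP fragments over an input level of 0.296, and its q-value of 0.0957 missed 0.05. The same fold and p-value were listed for 436 peaks of the table, this one included, because so few fragments allow few values. CISH was therefore peak-bearing in the deposited list without passing the usual q threshold.

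SOCS1 and SOCS3 are the members that block JAK activity directly, through a kinase inhibitory region next to the SH2 domain. SOCS1, which restrains interferon gamma signalling, had no peak in its span of 1788 bases on chromosome 16 from 11254417 to 11256204. The closest summit was 73886 bases away. A list of peaks gives no value for a gene without one, so low RNA and low methylation of SOCS1 cannot be told apart here.

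SOCS3, which binds the shared interleukin 6 receptor chain gp130, carried 1 strong and 1 weak peak. The strong one lay on chromosome 17 from 78357791 to 78358873 and was 1083 bases wide. It rested on 80 RIP fragments over an input level of 11. The fold there was 4.36 (3.47 to 5.41), with a q-value of 1.6e-15. The weak one, from 78356675 to 78357022, reached 103 bases past the 3' end of the gene. Its fold was 2.85 (1.82 to 4.29) on 20 fragments, with a q-value of 0.0745.

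Both SOCS3 peaks carry promoter labels in the deposited table, yet they lay in the 3' part of the gene. Their summits stood 1278 and 137 bases from the 3' end, in a gene of 4148 bases read on the minus strand. The deposited transcript of SOCS3 spans 2887 bases of the genome, and the summits were 1611 and 2752 genomic bases from its start. In the table a promoter label reaches 3 kb from a start and comes before any UTR or exon label, so in a short gene it can cover the whole transcript.

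SOCS2 limits growth hormone signalling by acting on its receptor and on JAK2-STAT5. It carried 2 peaks of like strength, both labelled as promoter and both downstream of the start of the deposited transcript. The first lay on chromosome 12 from 93572893 to 93573290, with a summit 374 genomic bases from that start, in a transcript that spans 4071 bases of the genome, introns included. Its fold was 7.56 (4.92 to 11.18), and 22 RIP fragments covered it. The second lay from 93574756 to 93575198 and had its summit 2325 genomic bases from the same start. There the fold was 7.88 (5.18 to 11.57), and 23 fragments covered it. The input level was 1.0 under both summits and both had a q-value of 6.01e-10. The summits were 1951 bases apart, and their intervals overlapped.

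The SOCS2 folds stood at percentiles 94.0 and 94.7 of the 5556 promoter-labelled peaks, whose median fold was 3.45. The RefSeq span of SOCS2, 56268 bases, runs far downstream of the deposited transcript, and the summits stood at 5.5% and 8.9% of that span. Neither SOCS2 summit lay in the span of another gene, the antisense gene SOCS2-AS1 included.

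SOCS4 and SOCS5 are close relatives with long N-terminal regions that have been linked to turnover of the epidermal growth factor receptor. SOCS4 carried 1 broad peak of 1406 bases on chromosome 14 from 55043006 to 55044411. Its deposited label is 5' UTR, and the summit stood 6254 bases from the 3' end of the gene. The fold was 3.83 (3.0 to 4.81) on 70 fragments over an input level of 11, with a q-value of 3.25e-11. Among the 441 peaks labelled 5' UTR this fold stood at percentile 46.7, while the width stood at percentile 98.0 of all peaks.

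SOCS5 held the highest fold of the family. Its 3' UTR peak on chromosome 2 from 46758596 to 46760279 was 1684 bases wide, the widest of the 13. The fold was 9.05 (7.09 to 11.40) on 69 fragments over an input level of 4.0, and the q-value was 4.21e-27. This fold stood at percentile 93.9 of the 5749 3' UTR peaks, whose median was 4.12. The other SOCS5 peaks lay in its single intron and were weaker. The one from 46704332 to 46704636 had a fold of 4.34 (2.43 to 7.33) on 11 fragments with a q-value of 0.00211. The one from 46756690 to 46756985 had a fold of 3.06 (1.6 to 5.54) on 8 fragments, with a q-value of 0.198.

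SOCS6 and SOCS7 act mostly on receptor tyrosine kinase and insulin signalling. SOCS6 held the smallest q-value of the family, 5.45e-33, in a 3' UTR peak on chromosome 18 from 70325248 to 70326565. That peak had 113 RIP fragments over an input level of 10 and a fold of 6.68 (5.52 to 8.01). Only 196 bases upstream ended a second peak, in exon 2 of 2, from 70324723 to 70325051. The exon peak had 65 fragments over an input level of 12, a fold of 3.28 (2.55 to 4.17) and a q-value of 2.02e-08. The summits were 1072 bases apart in the same last exon region, over like input, and their intervals did not overlap.

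A further SOCS6 peak lay in intron 1 of 1, from 70318814 to 70319226, where the fold was 4.41 (2.25 to 8.23), the RIP fragments numbered 7 and the q-value was 0.00356. Its input level of 0.246 was the lowest in the table, a floor shared by 10483 peaks (26.3%). SOCS7 carried 1 peak at the same floor, in intron 9 of 9 on chromosome 17 from 38396119 to 38396414. It rested on 3 fragments. Its fold was 2.35 (1.12 to 5.32) and its q-value 1. The same fold and p-value occurred in 4867 peaks of the table, so the SOCS7 peak stood at the weak end of the list.

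**Figure D2:**
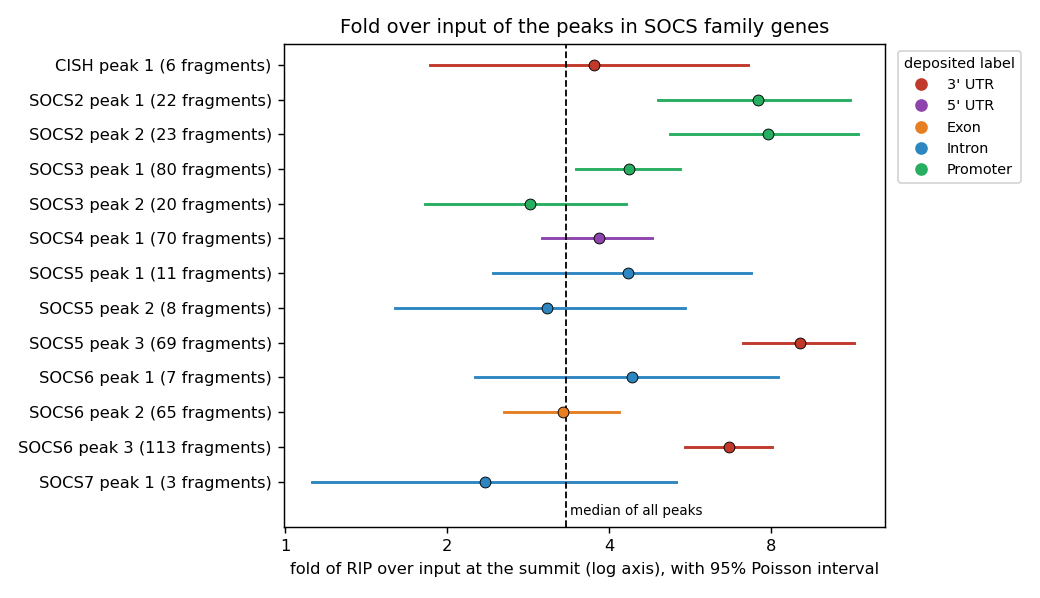
Fold of RIP over input at the summit (log axis) for each of the 13 peaks, with 95% Poisson intervals on the RIP fragments; peaks are numbered from the 5' end of each gene, colour gives the deposited label and the dashed line is the median of all peaks, 3.33. The intervals of SOCS5 peak 3, SOCS6 peak 3, both SOCS2 peaks and SOCS3 peak 1 lie wholly above the line.

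Ordered by highest fold, the members ran SOCS5, SOCS2, SOCS6, SOCS3, SOCS4, CISH and SOCS7. Of the 6 neighbouring pairs in that order, 5 had overlapping intervals, and the exception was SOCS6 above SOCS3. Over all 21 pairs the intervals were separate in 7, each time with SOCS5, SOCS2 or SOCS6 as the higher gene and SOCS3, SOCS4 or SOCS7 as the lower. CISH overlapped every other member. These intervals leave out error in the input level and the choice of the highest peak in genes with several, so separate intervals are no test between genes. The order also depended on the pseudocount, which lowers a fold most where input is low. Without it the highest folds were 18.3 for SOCS6 (7.34 to 37.6, from the intron peak on 7 fragments), 14.8 for SOCS2 (9.35 to 22.1), 13.0 for CISH (4.77 to 28.3), 11.1 for SOCS5 (8.61 to 14.0), 7.82 for SOCS7 (1.61 to 22.9), 4.67 for SOCS3 (3.70 to 5.81) and 4.08 for SOCS4 (3.18 to 5.16).

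The strong peaks lay over different amounts of input. SOCS3, SOCS4 and SOCS6 had input levels of 10 to 11 under their strongest peaks by p-value, at percentiles 92.5 to 93.6 of all peaks. SOCS5 stood at 4.0 and SOCS2 at 1.0. The input level is the larger of local and regional coverage, so it is no measure of expression, and RNA amount and methylation cannot be separated by fold alone.

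**Figure D3:**
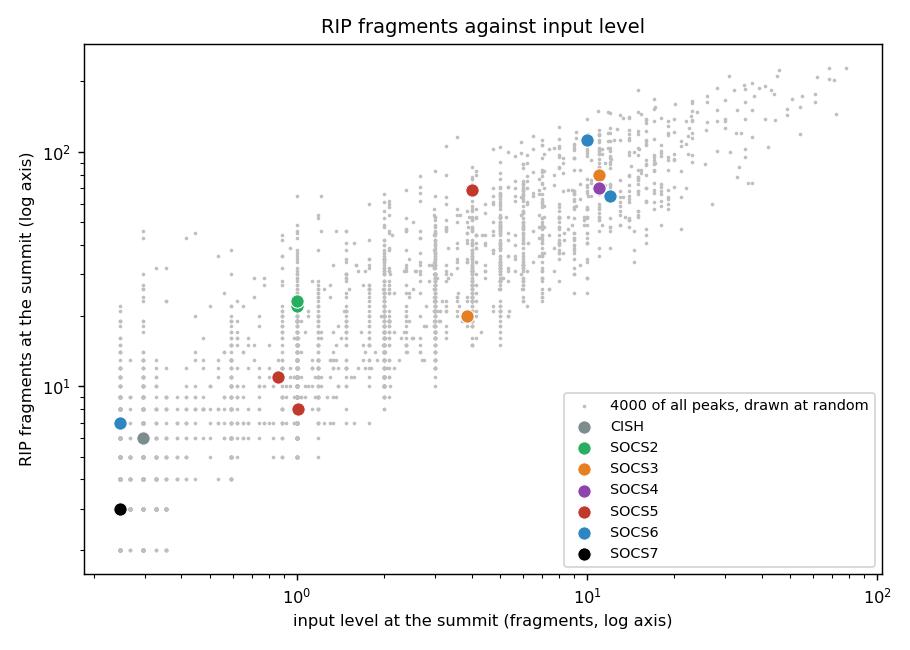
RIP fragments (vertical, log axis) against input level (horizontal, log axis) at the summit, for the 13 SOCS family peaks (colours) and 4000 peaks drawn at random from the table (grey). SOCS6 peak 3 has 113 fragments over an input of 10, SOCS5 peak 3 has 69 over 4.0, and SOCS7 sits at the lower left with 3 fragments over 0.246.

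Of the 13 peaks, 9 had a q-value under 0.05, beside 48.8% of all peaks, and 7 had one under 1e-5, beside 25.8%. The 7 were both SOCS2 peaks, the stronger SOCS3 peak, the SOCS4 peak, the SOCS5 3' UTR peak and the exon and 3' UTR peaks of SOCS6. A fold of at least 4 was reached by 7 peaks, beside 33.9% of all peaks. By label, 4 were promoter, 4 intron, 3 3' UTR, 1 5' UTR and 1 exon. Over all peaks these labels made up 14.0%, 37.9%, 14.4%, 1.11% and 15.1%. None of the 4 intron peaks passed a q-value of 1e-5, beside 11.2% of all 15069 intron-labelled peaks. The 4 widest peaks, in SOCS3, SOCS4, SOCS5 and SOCS6, were also those with the most fragments, from 69 to 113.

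The gene named in the deposited table, that of the nearest transcript start, often was not the SOCS gene itself. The table named another gene for 6 of the 13 peaks, beside 38.2% of 30222 peaks in protein-coding genes. Of the 7 peaks with a q-value under 1e-5, 4 were among them. The SOCS5 3' UTR peak was given to LINC01118, a long non-coding RNA whose start is 56389 bases away. All 3 SOCS6 peaks were given to LINC01909, the SOCS4 peak to MAPK1IP1L and the SOCS7 peak to ARHGAP23. Neither LINC01118 nor LINC01909 held a summit in its own span. Read by that column, SOCS4, SOCS6 and SOCS7 would have no peak.

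The reverse occurred for SOCS1, SOCS3 and SOCS5. The table named a family member for 18 peaks, of which 11 lay outside that member. The share of all peaks that lie outside the gene named for them is not given here, so this count has no background. The 6 peaks named for SOCS1 all lay in CLEC16A, a large neighbouring gene of the autophagy pathway, 75.1 to 124 kb from the SOCS1 start. The strongest of them, in the CLEC16A 3' UTR from 11179699 to 11181072 on chromosome 16, reached 9.30 (7.33 to 11.64) over 73 fragments, with a q-value of 1.73e-28, and it is not a SOCS1 peak. The 3 outside SOCS3 are labelled intergenic and had folds of 2.86 to 3.74, and the 2 outside SOCS5 had folds of 2.35 and 2.86. By nearest start the family thus counted 5 genes, beside 49.2% of protein-coding genes, and SOCS1 was among them.

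The rest of the pathway was followed through 7 role lists of 95 genes. Of these, 55 held a peak in their span (57.9%, interval 47.8 to 67.3), beside the 49.3% of protein-coding genes, and 43 did at a q-value under 0.05, beside 39%. The lists differed in size and gene length, and expression was not matched.

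Upstream of the SOCS genes, 4 of 18 cytokine genes held a peak, beside 49.3% of protein-coding genes. Only 2 of them did at a q-value under 0.05, beside 39%. Those were LIF, an interleukin 6 family cytokine (3.16, 2.06 to 4.67), and CLCF1 (4.62, 3.52 to 5.96), whose peak also lies in an intron of a non-coding gene. IL7 had a fold of 2.86 on 4 fragments with a q-value of 0.582, and CNTF, CTF1 and EPO had no peak. Of 27 receptor genes 20 held a peak, beside 49.3% of protein-coding genes, and 13 did at a q-value under 0.05, beside 39%. The difference between ligands and receptors was not tested, and most ligand genes have spans under 10 kb, a class in which 25.6% of protein-coding genes held a peak. The highest folds were in IFNLR1, a chain of the interferon lambda receptor (intron, 11.61, 7.5 to 17.33), IFNAR1, of the type I interferon receptor (3' UTR, 9.20, 6.49 to 12.69), and IL4R (3' UTR, 8.50, 6.32 to 11.22). CSF2RB, CSF3R and IFNGR2 had no peak.

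SOCS proteins restrain the Janus kinases and STAT factors. Of the 4 Janus kinase genes, 3 held a peak, beside 49.3% of protein-coding genes, and 2 did at a q-value under 0.05, beside 39%. TYK2 reached a fold of 7.18 (5.01 to 9.99) and JAK1 one of 2.72 (2.01 to 3.60), both in 3' UTRs. JAK2 held 6 peaks, the highest at 2.86 (1.36 to 6.08) on 4 fragments with a q-value of 0.582, and JAK3, a kinase of blood cells, had none. Of 6 STAT genes, STAT3, which carries the interleukin 6 signal, reached 5.22 (3.14 to 8.29) and STAT5B, which carries that of growth hormone, 4.42 (2.97 to 6.36). The other 4, STAT2, STAT4, STAT5A and STAT6, had no peak. The 2 of 6 with a peak make 33.3% (interval 9.68 to 70.0), beside 49.3% of protein-coding genes. Both had one at a q-value under 0.05, beside 39%, and none of the 6 had one under 1e-5, beside 28.5%.

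Other inhibitors of the pathway held peaks in 11 of 13 genes, beside 49.3% of protein-coding genes, and in 10 at a q-value under 0.05, beside 39%. PTPN6, the phosphatase SHP-1, had the highest fold of the 7 lists at 12.38 (10.02 to 15.14, 92 fragments). PIAS1, an inhibitor of activated STAT proteins, reached 8.44 (5.34 to 12.82) in an intron and CBLB, a ubiquitin ligase, 7.51 (5.95 to 9.36) in its 3' UTR. PTPRC, a leukocyte phosphatase, and USP18, an interferon-induced inhibitor, had none. Among 9 ligase partners of the SOCS box 5 held a peak (55.6%, interval 26.7 to 81.1), beside 49.3% of protein-coding genes. At a q-value under 0.05 the count was 4, beside 39%. CUL5, the cullin that SOCS proteins recruit, reached 5.89 (3.97 to 8.48). ARIH2 (10.30, 6.82 to 15.02) and NEDD8 (5.13, 3.37 to 7.53) had peaks whose summits also lie in an overlapping gene. ELOB, RBX1 and RNF7 had no peak.

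Of 18 STAT target genes, 10 held a peak (55.6%, interval 33.7 to 75.4), beside 49.3% of protein-coding genes. Each of the 10 had one at a q-value under 0.05, beside 39% of protein-coding genes. FGG, the fibrinogen gamma chain and an acute phase gene of hepatocytes, reached 7.88 (4.67 to 12.69), the kinase gene PIM1 6.87 (5.05 to 9.14) and JUNB 4.68 (3.92 to 5.54). CRP, HAMP and IGF1, classical liver targets, had no peak.

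**Figure D4:**
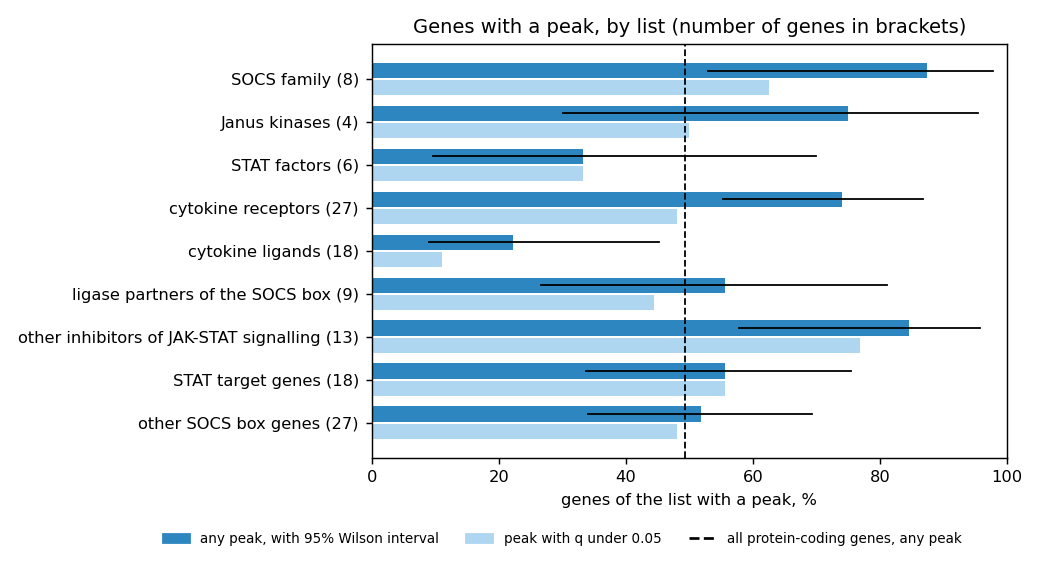
Share of genes with a peak in each list, for any peak (dark bars, with 95% Wilson intervals) and for a peak with a q-value under 0.05 (light bars); the dashed line is the share of protein-coding genes with any peak, 49.3%. The SOCS family stands at 87.5%, other inhibitors at 84.6%, cytokine receptors at 74.1%, STAT factors at 33.3% and cytokine ligands at 22.2%.

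Genes that share only the SOCS box were set beside the family. Of 27 genes of the ASB, SPSB, WSB and RAB40 families, 14 held a peak (51.9%, interval 34.0 to 69.3), beside 49.3% of protein-coding genes, and 13 did at a q-value under 0.05, beside 39%. The SOCS family share was 87.5% of only 8 genes, and the difference was not tested. SPSB1, an adaptor of inducible nitric oxide synthase turnover, reached 10.33 (8.06 to 13.06) in its 3' UTR, and RAB40B an intron peak of 7.24 (4.67 to 10.80). RAB40C was assigned a fold of 21.16 (17.09 to 25.93), but that summit lies in 3 genes. ASB10, ASB11 and ASB12 had none.

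The labels call the cells human liver. Of 9 hepatocyte markers, 2 held a peak (22.2%, interval 6.32 to 54.7), beside 49.3% of protein-coding genes. HNF4A reached 11.45 (8.54 to 15.07) in an intron, but that summit also lies in an overlapping gene. KRT8 had a fold of 2.75 (1.40 to 5.13, q-value 0.885). ALB, APOA1, TTR, SERPINA1, TF, KRT18 and AFP had no peak. A peak list holds no expression level, so it cannot show whether the other 7 were expressed.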

How the data were processed

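Here 1 m6A-RIP and 1 m6A-Input library of HCCLM3 cells were made from total RNA with a SMARTer stranded kit after Magna RIP extraction, per the labels. The submitters' processing notes name HISAT2, MACS2 and hg38; no version or setting was given in the sources used here. A single annotated table of 39801 peaks was deposited by the authors. The fold, per the file headers, is RIP over input. It is on a linear, not a log, scale, and its values fit the scaling and pseudocount given below. The −log10 p-value and −log10 q-value columns, deposited by the authors with damaged headers, were recognised from the values: the deposited score is 10 times the first, rounded down, for 99.99% of peaks. These 1-per-peak values were used only to describe, rank and filter peaks within the list.

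Summits were placed in gene spans of the RefSeq gene table for GRCh38.p14, which shares its main chromosomes with hg38. Peaks carry no strand. RIP fragments n and input level were recovered from fold and p-value: fold is (0.642 n + 1) over (input + 1) and p a Poisson tail. Whole numbers met both for 100.0% of peaks within 0.001 on the −log10 scale, against 1.32% without scaling, and 98.2% had 1 solution. The factor makes the RIP library 1.56 times the input; total depth is not known. The factor was the largest that fitted, as any such factor divided by a whole number fits too. The method was tested on peaks simulated with this same formula, so that test cannot show that the deposited values follow it. Python 3.11.15, scipy 1.17.1 and pandas 2.3.3 were used.

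The members and lists were chosen with earlier results of these data known. Named genes are all 8 members, per list the 3 with the strongest fold and 3 lacking a peak (first by symbol), genes exchanged with a member by the table, and the other hepatocyte markers and STAT genes; WDHD1 and SOCS2-AS1 were named after their values were seen. Alternatives changed the q-value, fold and fragment thresholds, the overlap, the gene assignment, the intron label and the pseudocount. Peak sequences were not used here, and 2 genes of the lists are not reported here.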

Additional observations from a re-analysis of the deposited data

How the results depend on the processing

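The counts of SOCS family genes, their peaks, pathway genes and other SOCS box genes stayed within 1.5 times under most alternatives. At a fold of at least 4 the family counted 4 genes and 7 peaks and the pathway lists 32 genes; at a q-value under 1e-5 the peaks numbered 7 and the pathway genes 34. By nearest start the highest fold of SOCS5 was 4.34 in place of 9.05. Without the pseudocount the highest folds of CISH (13.0), SOCS2 (14.8), SOCS6 (18.3) and SOCS7 (7.82) left their intervals; in SOCS6 the highest value moved to the intron peak, while the 3' UTR peak gave 7.25, within its interval. At a q-value under 0.05 CISH and SOCS7 had no value, and by nearest start SOCS4, SOCS6 and SOCS7 had none. CISH and SOCS7 rested on 6 and 3 fragments, so depth limits both. No paired analysis was possible because each group holds 1 library and each peak has 1 value from both.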

Other observations

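The nearest summit outside a member's span lay at distances from 6054 to 105295 bases. It was 105295 bases away for SOCS7, 73886 for SOCS1, 53301 for SOCS2, 49996 for SOCS6, 29482 for SOCS5 and 22009 for CISH, where it lay in a 3' UTR with a fold of 7.80. Near SOCS4 the next summit, 6054 bases away in an intron of WDHD1, had a fold of 1.72. Past the 3' end of SOCS3 the next summit was 9790 bases away, with a fold of 3.74 on 6 fragments.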
